A study of Homo sapiens with 12 samples.

Results

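RCC4 is an established human cell line of clear cell renal cell carcinoma (ccRCC) that has no working VHL protein and in which neither HIF-α protein is degraded in the presence of oxygen. The cells described here were harvested 48 h after transfection with 2 nM control siRNA and no other siRNA. Their 3 libraries, replicates 1 to 3, were chosen by that label from the 12 bulk RNA-seq libraries of the series. The other libraries came from the same line after siRNA against HIF1A, against EPAS1 (the gene of HIF-2α) or against both, and none of them was used. No library of the series came from cells with functional VHL. The levels below therefore describe this line under control siRNA, and they cannot be set against cells in which VHL works. The study's methods speak of biological replicates, but the sample labels do not say that the 3 libraries came from separate cultures, and the spread between them may in part be technical.

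VHL is the part of a ubiquitin ligase that binds the α subunits of hypoxia-inducible factors once oxygen-dependent prolyl hydroxylases have modified them. Without VHL, the α subunits escape destruction at any oxygen tension, pair with a β subunit (ARNT or ARNT2) and raise the transcription of genes for glucose uptake, glycolysis, pH balance, oxygen delivery and vessel growth. Loss of VHL is the founding event of most ccRCC, a tumor of clear, lipid- and glycogen-laden cells that is held to arise from the proximal tubule of the kidney. Many of these pathways can draw on several related genes (paralogs), and a cell line usually expresses only some of them.

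Levels are given as CPM, the count of a gene per 1000000 counts of the library after TMM scaling. The counts that genes took up were ranked as CPM, and levels of different genes were compared as CPM per kb, the CPM divided by the length of the main transcript. Errors are the SD over the 3 libraries. The libraries held 16368493, 20123214 and 16464089 counts over 23106 gene symbols. A gene was taken as detected at 1 CPM or more in each library, and 11548 symbols met this limit, among them 11076 of 18734 protein-coding symbols (59.1%). A further 821 symbols met it in 1 or 2 libraries only, and 7333 had no count at all. The mean level was at least 10 CPM for 9244 genes, at least 100 CPM for 2384 and at least 1000 CPM for 80. A library without a count for a gene still allows up to 0.148 to 0.184 CPM, which is what 3 counts amount to at these depths; this limit and the other depth statements cover counting error only.

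**Figure D1:**
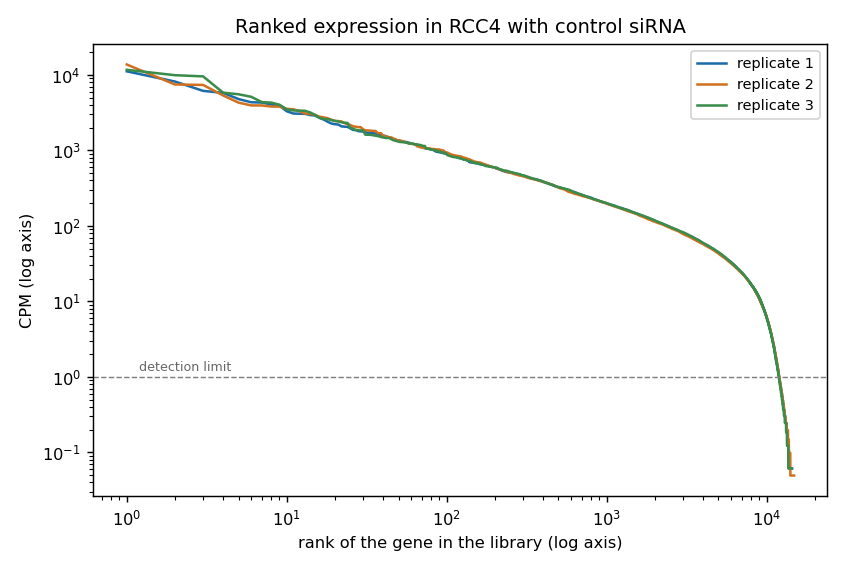
CPM of every counted gene (log axis) against its rank in the library (log axis), with 1 line for each of the 3 control siRNA libraries. The 3 lines lie close to each other over most ranks, starting at the 11124 to 13691 CPM of ACTB. They cross the detection limit of 1 CPM (dashed) beyond rank 11548, the number of genes that reach it in all 3 libraries.

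Cytoskeletal, glycolytic and translation genes stood at the top of the ranking. ACTB, cytoplasmic β-actin, took most counts, with 11124, 13691 and 11654 CPM in replicates 1 to 3 (mean 12156 ± 1355, SD, n = 3). Next came the translation elongation factor gene EEF1A1 at 8151, 7456 and 9892 CPM. FLNA, which encodes the actin crosslinker filamin A, had 5773, 3801 and 9538 CPM, with replicate 3 far above the others. GAPDH followed at 6131, 7347 and 5527 CPM, and MYH9, the heavy chain of non-muscle myosin, at 4772, 3543 and 5807 CPM. The other members of the first 20 by CPM were VIM, PKM, LDHA, TGFBI, ACTG1, TMSB10, PEG10, THBS1, TUBA1B, HSP90AB1, ALDOA, ENO1, HSP90AA1, CALR and AHNAK. Of these, TGFBI and THBS1 encode secreted matrix proteins, PEG10 is an imprinted gene derived from a retrotransposon, and CALR is a chaperone of the endoplasmic reticulum. Together the 20 genes held 8.53% ± 0.294 of all counts (SD, n = 3), and 931 genes held 50% of them.

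Per length the order changed, and 10 genes were in the first 20 on both scales. TMSB10, a short gene whose product binds actin monomers, led with 6665, 8529 and 5236 CPM per kb in replicates 1 to 3. ACTB came next at 6139, 7556 and 6431 CPM per kb, and the 2 ranges overlapped. GAPDH followed at 4771, 5718 and 4301 CPM per kb. PFN1, the ferritin genes FTL and FTH1, the galectin gene LGALS1, the metallothionein gene MT2A and 5 ribosomal protein genes (RPS2, RPLP0, RPS24, RPS12 and RPS20) entered the first 20 on this scale only. By gene class, 14 genes of actin and its partners held 3.79, 4.07 and 4.22% of the counts of replicates 1 to 3. The 19 genes from glucose uptake to lactate held 2.89% ± 0.150 (SD, n = 3), with replicate 3 lowest at 2.72%. The 77 cytosolic ribosomal protein genes held 3.87, 5.05 and 3.40%, a wider spread, with replicate 2 highest. The glycolysis and actin classes were put together after the ranking had been seen.

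Paralog choice was described in 79 gene families. In 77 of them at least 1 member was detected, and in 75 of these the same member was first by CPM per kb in all 3 libraries. The first member was at least 2-fold above the member that was second on average, in each library, in 50 families, at least 10-fold in 24 and at least 100-fold in 11. In 26 families it held over 90% of the summed CPM per kb. Families of glucose metabolism were the most one-sided by this count, with a first member at least 2-fold above the next in 12 of 13, whereas this was so in 0 of the 3 oxygen-sensing families. The 12 include the pyruvate dehydrogenase kinases, whose order turned without length, per coding length and with all exons merged. No test was made of any ratio, since a two-sided exact permutation test of 3 paired values cannot go below 0.25. The order can depend on which transcript length is taken, and this is said of each family described below in which the first member changes. The size of the ratios depends on it more widely. Of 67 first-to-second log2 ratios, 37 moved by more than their SD between libraries when CPM was taken without length and 4 more turned. Per coding length 34 moved and 6 turned, and with all exons merged 30 moved and 9 turned. The folds below hold for the main transcript length.

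**Figure D2:**
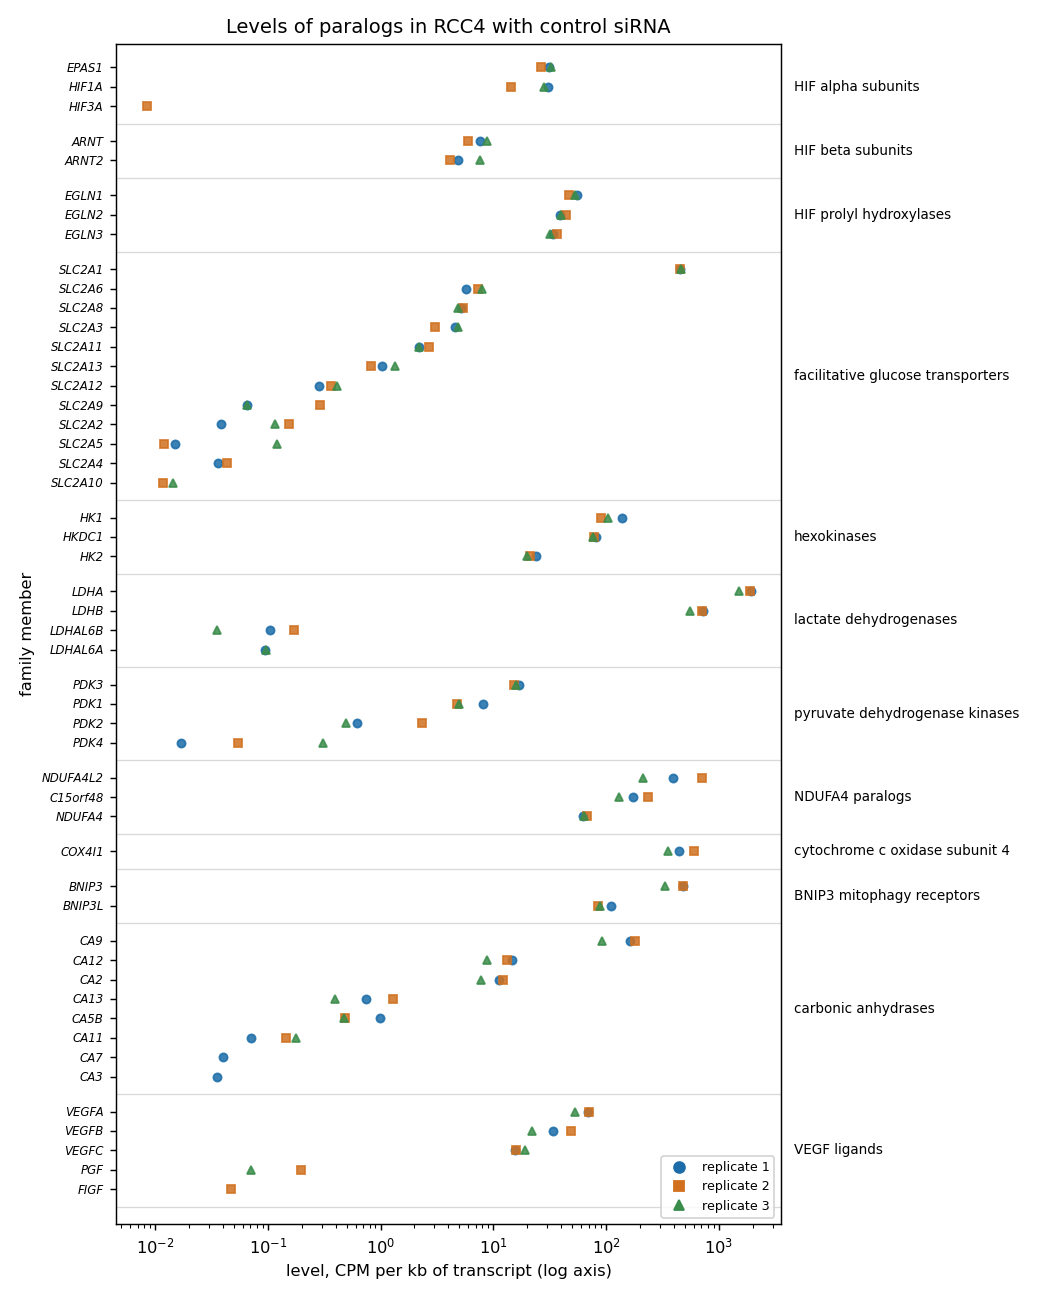
Level of each family member in CPM per kb of transcript (log axis) in 12 families, with 1 symbol for each of the 3 control siRNA libraries; libraries without a count, and members without a count in any library (among them SLC2A14, HK3, LDHC, COX4I2 and 7 carbonic anhydrase genes), are not drawn. SLC2A1 and CA9 stand more than 10-fold above the next member of their family in every library on this scale, while EPAS1 and HIF1A, and the 3 EGLN genes, lie within 2-fold of each other.

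Of the HIF α subunits, EPAS1 and HIF1A were expressed at like levels and HIF3A was not detected. EPAS1, the gene of HIF-2α, had 162, 136 and 169 CPM in replicates 1 to 3, and 30.2 ± 3.41 CPM per kb (SD, n = 3). HIF1A, the gene of HIF-1α, had 119, 57.2 and 111 CPM, with replicate 2 well below the others, and 24.3 ± 8.55 CPM per kb. EPAS1 was above HIF1A per length in each library, by 1.04 to 1.82 fold. HIF3A, the third α subunit gene, had 1 count in 1 library. For the β subunits, ARNT had 7.70, 5.91 and 8.87 CPM per kb and ARNT2, a paralog best known from neurons, had 4.91, 4.11 and 7.68. Their ratio was 1.15 to 1.57, and ARNT2 came first when CPM was taken without length or per coding length. Both β subunit genes lay below both α subunit genes per length in every library.

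The 3 prolyl hydroxylases that mark the α subunits for VHL were within 2-fold of each other per main transcript length. EGLN1 (PHD2), held to be the main one at normal oxygen, had 55.6, 47.2 and 53.5 CPM per kb. EGLN2 (PHD1) had 39.1, 44.3 and 39.7 CPM per kb. EGLN3 (PHD3), itself a well-known HIF target, had 33.5, 37.1 and 32.1 CPM per kb. The ratio of EGLN1 to EGLN2 ran from 1.07 to 1.42. As a mean log2 ratio it was 0.34 on this scale but 1.39 without length, 1.32 per coding length and 1.68 with merged exons, so that the lead of EGLN1 is larger on each of the other scales. HIF1AN, the asparaginyl hydroxylase FIH that silences the transactivation domain, had 7.76, 7.02 and 6.76 CPM per kb. VHL mRNA itself was present, with 711, 817 and 691 counts, or 43.3, 40.3 and 42.4 CPM, in replicates 1 to 3. The coefficient of variation of its CPM was 3.77%, beside 3.68% from counting alone. A count per gene does not tell an intact from a mutated transcript. All 9 listed genes of the VHL ligase and the HIF hydroxylases were detected, beside 59.1% of protein-coding symbols. TCEB1 and TCEB2 (elongins C and B) had 90.5 and 111 CPM on average, the scaffold CUL2 61.2 and the RING protein gene RBX1 75.5. BAP1, SETD2 and PBRM1, tumor suppressors that share chromosome arm 3p with VHL, had means of 90.4, 82.8 and 10.2 CPM.

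Among glucose transporters 1 gene stood far above the rest. SLC2A1, which encodes the transporter GLUT1, had 1527, 1548 and 1579.7 CPM and 459 ± 7.80 CPM per kb (SD, n = 3), a coefficient of variation of 1.70%. It was 58.4 to 78.2 fold above SLC2A6, the next of 13 facilitative transporters, and held 95.7% of the family. SLC2A8 had 5.17 CPM per kb, and SLC2A3, the high-affinity GLUT3, had 4.14. SLC2A11, SLC2A13 and SLC2A12 were lower, at 2.35, 1.06 and 0.352 CPM per kb. SLC2A2 (GLUT2) and SLC2A9 (a urate transporter), both used by the normal proximal tubule, had at most 11 counts in any library. SLC2A4, SLC2A5 and SLC2A10 were also under the detection limit, and SLC2A14 was listed at 0.

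Of 5 hexokinase genes 3 were detected. HK1 had 139, 90.5 and 103 CPM per kb in replicates 1 to 3, and HKDC1, a less studied member of the family, had 82.3, 78.1 and 76.4. HK1 was ahead in each library, by 1.16 to 1.69 fold, but fell behind HKDC1 when all exons of a gene were merged for its length. HK2, the HIF-responsive isoform of muscle and tumors, had 24.1, 21.4 and 19.8 CPM per kb, a level below HK1 in every library. HK3 was listed at 0. The next families had a clearer lead. PFKP, the platelet type of phosphofructokinase, was 2.71 to 3.66 fold above PFKL. Among the bifunctional enzymes that set fructose 2,6-bisphosphate, PFKFB3 was 2.11 to 2.90 fold above PFKFB4.

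In lower glycolysis the ubiquitous isoforms came first. ALDOA, at 1630.4 ± 144 CPM per kb, was 65.3 to 76.7 fold above ALDOC, the brain aldolase. PGAM1, at 481 ± 47.8 CPM per kb, was 288 to 836 fold above the muscle form PGAM2. ENO1 had 1463 ± 225 CPM per kb, and ENO2, the enolase of neurons that is also used as a marker in renal carcinoma, still reached 186 ± 50.5. PKM had 1762 ± 209 CPM per kb, while PKLR, the pyruvate kinase of liver and normal proximal tubule, was listed at 0. PGK1 had 354 ± 37.6 CPM per kb, and the testis form PGK2 was listed at 0. The gene symbol PKM does not separate the splice forms of pyruvate kinase.

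Both lactate dehydrogenase subunits were abundant. LDHA had 1916, 1911 and 1499 CPM per kb and LDHB, the subunit typical of oxidative tissue, had 731, 712 and 551. Although each varied between libraries, their ratio hardly did, at 2.62 to 2.72. SLC16A3, the lactate exporter MCT4, was 3.36 to 4.90 fold above SLC16A1 (MCT1). Of the kinases that close the entry of pyruvate into mitochondria, PDK3 had 16.1 and PDK1 5.98 CPM per kb. PDK1 has a long annotated transcript of 14072 bp, and it was above PDK3 without length, per coding length and per merged exons, so that the leading PDK gene could not be settled. PYGB, the brain type of glycogen phosphorylase, was 3.86 to 5.28 fold above the liver type PYGL.

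The promoters of 2 such pairs, LDHA with LDHB and CA9 with CA12, and of SLC2A1 are printed to show the sequence around the start. In each pair the first gene led its family and the second came next, and SLC2A1 led its own. Each runs from 250 bases before to 50 after a RefSeq start in GRCh38.p14, which is not the build of the counts, and LDHA has 2 such starts. Capitals mark each ACGTG or GCGTG, the core that HIF dimers recognise, on either strand, where CACGTG counts once on each strand.
SLC2A1 (chr1:42958819-42959118, minus strand): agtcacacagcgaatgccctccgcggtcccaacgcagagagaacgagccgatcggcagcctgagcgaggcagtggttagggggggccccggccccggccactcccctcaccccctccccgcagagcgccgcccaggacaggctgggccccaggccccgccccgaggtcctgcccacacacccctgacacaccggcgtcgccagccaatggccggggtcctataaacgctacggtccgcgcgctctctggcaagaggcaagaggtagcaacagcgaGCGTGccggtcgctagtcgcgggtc
LDHA, first start (chr11:18394313-18394612, plus strand): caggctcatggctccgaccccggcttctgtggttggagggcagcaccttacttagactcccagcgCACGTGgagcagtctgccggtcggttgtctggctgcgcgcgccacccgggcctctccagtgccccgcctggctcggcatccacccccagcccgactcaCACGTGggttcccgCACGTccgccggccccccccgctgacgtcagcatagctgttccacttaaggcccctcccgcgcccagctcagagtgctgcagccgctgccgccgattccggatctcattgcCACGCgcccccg
LDHA, second start (chr11:18396101-18396400, plus strand): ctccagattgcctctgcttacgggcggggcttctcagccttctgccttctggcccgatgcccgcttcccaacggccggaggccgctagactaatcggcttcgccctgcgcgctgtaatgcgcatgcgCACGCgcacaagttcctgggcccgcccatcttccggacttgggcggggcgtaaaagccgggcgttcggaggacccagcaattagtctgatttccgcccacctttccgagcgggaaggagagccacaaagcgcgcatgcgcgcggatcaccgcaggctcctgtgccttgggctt
LDHB (chr12:21657793-21658092, minus strand): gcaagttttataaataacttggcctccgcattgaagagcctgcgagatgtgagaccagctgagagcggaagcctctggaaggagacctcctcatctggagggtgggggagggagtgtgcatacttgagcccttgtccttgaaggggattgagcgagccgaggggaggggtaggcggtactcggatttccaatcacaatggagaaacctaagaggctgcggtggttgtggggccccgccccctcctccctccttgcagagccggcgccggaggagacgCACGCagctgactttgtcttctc
CA9 (chr9:35673678-35673977, plus strand): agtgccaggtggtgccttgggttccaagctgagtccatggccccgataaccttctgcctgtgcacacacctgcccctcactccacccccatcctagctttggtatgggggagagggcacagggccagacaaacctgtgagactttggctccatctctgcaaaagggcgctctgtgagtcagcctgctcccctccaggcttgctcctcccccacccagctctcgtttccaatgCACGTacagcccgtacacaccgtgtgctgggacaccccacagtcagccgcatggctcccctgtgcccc
CA12 (chr15:63381797-63382096, minus strand): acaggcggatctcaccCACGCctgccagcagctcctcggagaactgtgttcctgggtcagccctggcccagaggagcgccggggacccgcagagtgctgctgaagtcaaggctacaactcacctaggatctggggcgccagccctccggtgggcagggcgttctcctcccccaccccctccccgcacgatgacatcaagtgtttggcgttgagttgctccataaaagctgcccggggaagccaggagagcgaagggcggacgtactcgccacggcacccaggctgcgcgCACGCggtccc
The first LDHA promoter held 6 cores, and that of CA12 held 2. The other 4 held 1 each. Promoters that were looked up but are not printed were those of COX4I1 and EGLN3, with 0 cores each, PLIN2 with 5, and HK2 with 3 and 6 at its 2 starts. Such cores are common, being present in 13213 of 27305 RefSeq promoters of this length (48.4%) and in 5958 of the 9230 that belong to genes detected here (64.6%). Nothing about HIF binding was measured in these libraries.

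Among mitochondrial genes, NDUFA4L2 stood out. It encodes a paralog of NDUFA4, a subunit bound to cytochrome c oxidase, and is a known HIF target and ccRCC marker. NDUFA4L2 had 392, 705 and 213 CPM per kb in replicates 1 to 3, a span of more than 3-fold. C15orf48, the third paralog (known as NMES1), had 173, 235 and 130.2 CPM per kb. NDUFA4 itself was steady, with 62.6, 67.9 and 63.9 CPM per kb. NDUFA4L2 was first in each library, and replicate 2 was highest for all 3 genes. C15orf48 was above NDUFA4 per length, but without length NDUFA4 was above it in replicates 1 and 3, at 127, 138 and 129.97 CPM beside 113, 153 and 84.5. The transcripts of NDUFA4L2 (943 bp) and C15orf48 (649 bp) are short, that of NDUFA4 (2035 bp) less so, and short genes as a group were high in replicate 2 and low in replicate 3. The part of length in these values was not tested.

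Of the COX4 isoforms, which HIF-1 is known to switch in hypoxia, only COX4I1 was seen. COX4I1 had 446, 606 and 352 CPM per kb, and COX4I2 had no count in any library, which puts COX4I1 at least 1279.5 fold above it. BNIP3, a HIF target that tags mitochondria for removal, had 485, 480.0 and 332 CPM per kb and was 3.75 to 5.66 fold above BNIP3L. AK4, an adenylate kinase of the mitochondrial matrix and another HIF target, had 82.6, 68.6 and 73.0 CPM per kb.

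Carbonic anhydrases, which interconvert carbon dioxide and bicarbonate, were dominated by CA9, the membrane enzyme used as a marker of ccRCC. CA9 had 162, 179.7 and 92.0 CPM per kb, with replicate 3 lowest, and held 85.4% of the family on this scale. CA12, its membrane-bound relative, was next with 14.6, 13.3 and 8.78 CPM per kb, and the ratio of CA9 to CA12 was 10.5 to 13.6. That size rests on the long main transcript of CA12 (6098 bp). The mean log2 ratio was 3.54 per main transcript and 3.69 with merged exons, but 1.56 without length and 1.19 per coding length. The cytosolic CA2 had 11.3, 12.2 and 7.83 CPM per kb, close to CA12. CA13 and the mitochondrial CA5B were detected at 0.809 and 0.652 CPM per kb. CA4 and CA14, which the normal proximal tubule carries on its membrane, were listed at 0, as were CA1, CA5A, CA6, CA8 and CA10. CA3, CA7 and CA11 had at most 5 counts in a library.

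Of 5 VEGF ligand genes 3 were detected, whereas none of the 3 listed receptor genes was. VEGFA had 68.7, 70.9 and 53.2 CPM per kb and was 1.46 to 2.43 fold above VEGFB, although VEGFB led when exons were merged. VEGFC, the lymphatic factor, had 16.9 CPM per kb. The receptor genes FLT1, KDR and FLT4 were listed at 0 in every library. ANGPTL4, a secreted inhibitor of lipoprotein lipase, was the sole detected angiopoietin-like gene, at 7.23, 13.1 and 6.99 CPM per kb.

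All 14 listed marker genes of ccRCC were detected, beside 59.1% of protein-coding symbols. Their median level was 134 CPM per kb, beside 10.5 for all detected genes. The list was chosen with earlier results of these data known. VIM, an intermediate filament gene typical of ccRCC and of mesenchymal cells, had 4051, 5335 and 4286 CPM. TGFBI had 3903, 3933 and 3342 CPM and CAV1, which coats caveolae, 1094, 1079 and 1189.9. NNMT, an enzyme of nicotinamide metabolism, had 516, 494 and 357 CPM. CD70, an immune ligand, had 153, 222 and 157 CPM. The lipid droplet coat PLIN2 had 255, 235 and 210.2 CPM, and SCD, a fatty acid desaturase, had 516, 426 and 435. The ferroxidase gene CP (ceruloplasmin) had 64.7, 53.5 and 88.8 CPM. HILPDA, which blocks lipolysis at lipid droplets, had 51.4, 42.8 and 24.2 CPM, with replicate 3 lowest. Of the 15 genes of the common hypoxia signature, 14 were detected (93.3%, beside the same 59.1%), with a median of 97.1 CPM per kb. ADM, which encodes the vasodilator adrenomedullin, had 107, 111 and 35.8 CPM, with replicate 3 far below the others. The exception was MIF, listed at 0 in every library although it is active in most cells, so that a 0 in these files need not mean an absent transcript.

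**Figure D3:**
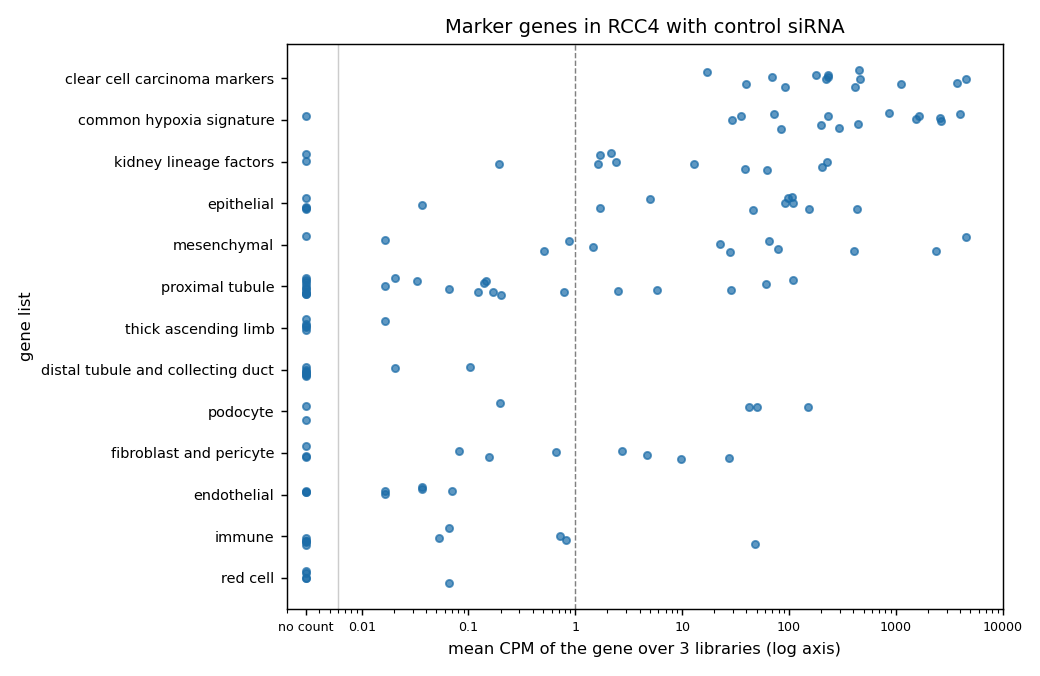
Mean CPM over the 3 control siRNA libraries (log axis) of each gene in 13 lists, 1 point per gene; genes without a count in any library are set at the left edge, and the dashed line marks 1 CPM. All 14 ccRCC markers lie above 10 CPM, whereas every gene of the thick ascending limb, distal tubule, endothelial and red cell lists lies below 1 CPM.

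Some kidney lineage factors were well expressed and others were at or near 0. PAX8, a factor of kidney development that ccRCC retains, had 196, 262 and 220.0 CPM, and PAX2 had 72.1, 78.0 and 35.5. EMX2, which acts in the developing nephron, had 43.3, 59.5 and 14.7 CPM. HNF4A, the factor that drives mature proximal tubule genes, had 2, 3 and 5 counts, and its paralog HNF4G had 9.75, 8.47 and 11.3 CPM. GATA3 and TFAP2B, which mark distal nephron segments, were listed at 0. GATA6 led the GATA factors, 2.67 to 3.28 fold above GATA2 per length. In all, 8 of 12 lineage factors were detected (66.7%, beside 59.1% of protein-coding symbols), and 5 with a limit of 2 CPM. Their median of 0.904 CPM per kb lay below the 2.26 of all protein-coding symbols.

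Of 25 proximal tubule genes, 5 were detected, beside 59.1% of protein-coding symbols. Of the others, 13 were below 0.1 CPM in each library, among them 10 without a count. The detected genes were the brush border enzymes GGT1 (91.9, 124 and 109.9 CPM) and DPP4 (86.3, 65.5 and 32.7 CPM), the scaffold PDZK1 (33.9, 31.9 and 20.5 CPM), the amino acid transporter subunit SLC3A1 (5.73, 5.72 and 5.90 CPM) and the inositol oxygenase MIOX (2.32, 3.25 and 2.03 CPM). The endocytic receptors LRP2 and CUBN had at most 4 and 17 counts in a library. The water channel AQP1 had at most 6 counts. The phosphate transporter SLC34A1, the organic anion transporters SLC22A6 and SLC22A8 and the gluconeogenic genes PCK1, FBP1 and G6PC were listed at 0.

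Genes of other nephron and stromal cells were mostly missing, whereas 59.1% of protein-coding symbols were detected. The thick ascending limb, distal tubule and collecting duct, endothelial and red cell lists had 0 detected genes out of 6, 9, 8 and 5. Summed over a list, their levels were at most 0.369 CPM in any library. A bulk library averages over the cells of this line, so few cells with a transcript and little of it in each cannot be told apart. Of 10 immune genes 1 was detected, the lysosomal CD68 at 43.9, 44.3 and 57.2 CPM, while PTPRC, CD3E, CD3D and MS4A1 were listed at 0. Of 10 fibroblast and pericyte genes, COL1A1 (22.2, 26.0 and 35.1 CPM), ACTA2 (9.02, 11.2 and 9.09 CPM) and RGS5 (4.75, 2.86 and 6.51 CPM) were detected, but COL1A2, COL3A1 and DCN were listed at 0. Of 6 podocyte genes, SYNPO (167, 107 and 179 CPM), PTPRO (60.4, 45.0 and 45.9 CPM) and PODXL (36.4, 36.7 and 53.6 CPM) were detected, while the slit diaphragm gene NPHS1 was listed at 0.

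Of the epithelial genes 9 of 14 were detected and of the mesenchymal genes 8 of 12 (64.3 and 66.7%), shares near the 59.1% of all protein-coding symbols. KRT8 had 418, 514 and 363 CPM, KRT18 98.3, 140.4 and 89.1 and KRT19 88.5, 108 and 80.0, all keratins of simple epithelia. EPCAM (46.8, 54.5 and 35.9 CPM), CLDN4 (94.1, 84.9 and 142 CPM) and MUC1 (99.6, 131 and 64.1 CPM) were detected as well. CDH1 (E-cadherin) had 1, 1 and 0 counts, and the epithelial splicing and transcription factor genes ESRP1, GRHL2 and OVOL2 were listed at 0. CDH2 (N-cadherin) led the cadherins with 419, 292 and 513 CPM, 6.65 to 23.4 fold above the kidney cadherin CDH16 per length. Among the factors of mesenchymal transition, SNAI2 was 2.58 to 3.30 fold above SNAI1 and ZEB2 1.52 to 2.07 fold above ZEB1, an order that turned for the ZEB pair with merged exons. TWIST1 was listed at 0, and TWIST2 stayed below the detection limit in at least 1 library. CDH11, also on the mesenchymal list, had 0, 1 and 0 counts. Of the 12 mesenchymal genes 2 were below 0.1 CPM in each library, as were 5 of the 14 epithelial genes. FN1 (fibronectin) had 1116, 849.9 and 5116 CPM, a 6-fold span that was among the widest of all genes.

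The matrix programme was selective. THBS1 (thrombospondin 1), at 423, 315 and 433 CPM per kb, was 207 to 412 fold above THBS3, the next family member. CYR61, a matricellular gene, had 974, 1201 and 817 CPM per kb and was 51.8 to 80.6 fold above its relative CTGF. TIMP1, an inhibitor of metalloproteinases, was 9.45 to 28.4 fold above TIMP2, a mean log2 ratio of 4.08 that was 1.84 without length. LOXL2, which crosslinks collagen, was 5.99 to 14.7 fold above LOX. The basement membrane collagens COL4A1 and COL4A2, which share a promoter region, had 221 and 192 CPM per kb, with a ratio of 1.01 to 1.34. The other 4 type IV genes were below the detection limit. COL5A1 led the fibrillar collagens at only 14.8, 12.1 and 34.8 CPM per kb. P4HA2 and P4HA1, which hydroxylate collagen, were nearly level at a ratio of 1.11 to 1.16, and PLOD2 was 1.48 to 2.14 fold above PLOD3. Both orders turned with merged exons, and PLOD1 then led the lysyl hydroxylases.

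In 7 of 10 adhesion and skeleton families the first member was at least 2-fold above the next in each library. The integrins ITGA3 and ITGB1, which together bind laminin, led their families at 286 ± 36.2 and 255 ± 66.4 CPM per kb. ITGB3 was second among the β chains on average, with 62.8, 25.9 and 122 CPM per kb, low in replicate 2, where ITGB5 was above it, and high in replicate 3. ACTB was 3.82 to 3.88 fold above ACTG1, a ratio that hardly moved between libraries. CAV1 was 4.21 to 5.77 fold above CAV2. KRT8 was 2.37 to 4.78 fold above KRT80, and KRT18 1.09 to 1.28 fold above KRT19; both orders turned with merged exons. TUBB4B led the β-tubulins at 468, 593 and 519 CPM per kb and was 2.00 to 2.50 fold above TUBB6. That order is uncertain, since TUBB, usually a major β-tubulin gene, had 20, 33 and 18 counts and lies in a stretch of chromosome 6 with few counts in these files. CLDN4 led 20 claudins in each library, at 55.5, 50.1 and 83.6 CPM per kb. CLDN2, the pore-forming claudin of the proximal tubule, was second on average at 31.7, 36.0 and 9.50 CPM per kb, but in replicate 3 it lay below CLDN1 and CLDN12.

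All 20 genes of S phase and mitosis were detected, beside 59.1% of protein-coding symbols. MKI67 had 615, 447 and 608 CPM, PCNA 329.9, 420.1 and 299 and TOP2A 297, 259 and 323. CCND1, a HIF-2 target in renal carcinoma cells, led the D cyclins with 142, 132 and 77.1 CPM per kb, 1.83 to 3.82 fold above CCND3. CDK4 was 1.95 to 4.55 fold above CDK6 per length, but CDK6, whose transcript has 11663 bp, was ahead without length and per coding length. CCNE1 was 1.05 to 1.84 fold above CCNE2, and that order turned on the same scales. CDKN2C, which encodes the inhibitor p18, held 97.9% of the INK4 family at 165, 176 and 107 CPM per kb. CDKN2A and CDKN2B, neighbours on chromosome 9, were listed at 0 in every library. The genes on either side of them had counts, MTAP with 768, 871 and 850 and DMRTA1 with 143, 140 and 126, both looked up after the zeros had been seen. The cause of the zeros was not tested. CDKN1A was 1.78 to 3.10 fold above CDKN1B, MYC 19.6 to 76.3 fold above MYCL1, and BCL2L1 (BCL-XL) 2.053 to 2.62 fold above MCL1.

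Receptors and ligands showed similar choices. AXL held 97.8% of the TAM receptors at 167, 107 and 212 CPM per kb, 42.0 to 57.3 fold above TYRO3. MET had 62.7, 50.2 and 95.2 CPM per kb, and its relative MST1R was listed at 0. FGFR1 was 3.48 to 4.04 fold above FGFR4. EGFR and ERBB2 had no stable order. EGFR had 13.1, 4.39 and 21.1 CPM per kb and ERBB2 12.4, 10.2 and 12.4, so that EGFR was lowest in replicate 2 and the lead changed there. Of the EGFR ligands, HBEGF had 43.9 CPM per kb and TGFA 22.8, an order that turned per coding length. IGFBP3, which binds insulin-like growth factors, had 867, 1176 and 341 CPM per kb and was 3.80 to 6.61 fold above IGFBP7. IRS2 was 7.59 to 46.4 fold above IRS1, NOTCH2 17.8 to 20.4 fold above NOTCH1, and JAG1 98.6 to 199 fold above JAG2. TGFB1 was 23.5 to 80.4 fold above TGFB2. The first member of the PDGF receptor family, CSF1R, had 37, 37 and 112 counts. Of 11 inflammatory cytokine and adhesion genes 10 were detected, beside 59.1% of protein-coding symbols. IL6 had 63.3, 55.8 and 40.7 CPM, IL8 129.9, 82.5 and 158 and CXCL1 66.2, 57.5 and 34.0.

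In lipid, iron and stress families, ferritin stood highest. FTL and FTH1, the light and heavy chains, had 2130 and 1883 CPM per kb, a ratio of 1.05 to 1.18, and FTH1 was ahead without length and per coding length. TFRC, the transferrin receptor, had 93.9, 52.1 and 182 CPM per kb, while the liver receptor TFR2 had 1, 1 and 0 counts. MT2A led the metallothioneins, which bind zinc and copper, at 1300.3, 2130.3 and 1377 CPM per kb, 6.55 to 10.1 fold above MT1E. SOD1 was 12.9 to 53.99 fold above SOD2 per length, a size that rests on the long main transcript of SOD2 (14167 bp). Without length SOD1 had 325, 420.0 and 166 CPM and SOD2 175, 123.1 and 203, so that SOD2 was ahead in replicate 3. HMOX1 and HMOX2, which break down haem, had 84.0 and 65.5 CPM per kb. NFE2L1 and NFE2L2 (NRF2) were level, at 59.9, 45.8 and 68.1 and 57.1, 44.1 and 70.8 CPM per kb, with the lead changing between libraries. PLIN2 was 1.22 to 1.80 fold above PLIN3, an order that turned with merged exons, and PLIN1 and PLIN5 were listed at 0. CPT1A, the liver type of the enzyme that admits fatty acids to mitochondria and a gene that HIF represses in ccRCC, had 0.396, 0.649 and 0.539 CPM per kb, below the muscle type CPT1B at 3.58, 9.33 and 4.39. SREBF2 was 1.92 to 4.60 fold above SREBF1, APOL1 1.71 to 2.21 fold above APOL2, and SLC7A5 (LAT1) 426 to 775 fold above SLC43A2, the next system L gene.

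Gene lists that the study drew from tumor cells, and not from this line, were detected to different degrees, beside 59.1% of protein-coding symbols. Genes entered such lists only if they were seen in the single cells compared, so all protein-coding symbols are not a like background. Of 148 genes higher in tumor than in proximal tubule cells and present in the files, 140 were detected (94.6%), with a median of 73.0 CPM per kb. TMSB10, VIM, RPS2, LGALS1 and LDHA led them. Of 191 genes lower in tumor, 109 were detected (57.1%), with a median of 1.99 CPM per kb and 34 without a count. The highest of these were FTL, PRDX1, LDHB, SOD1 and ATP5I, genes that most cells express. The lists tied to loss of chromosome arm 14q came from primary cultures of tumor cells, whereas the other study lists came from fresh biopsies. Of the 14q genes, 26 of 27 (96.3%) that were higher with the loss and 47 of 48 (97.9%) that were lower were detected. PRDX1 and H2AFZ led the former, and EEF1A1 and RPL29 the latter. Of module 1 of heterogeneity within tumors, 11 of 24 genes were detected (45.8%) and MYL6 and PPIA led. Of module 2, 9 of 11 were detected, led by VIM, MT2A and S100A6, at a median of 411 CPM per kb. Of module 3, 19 of 21 were detected, led by the chaperone genes HSPD1 and HSPE1.

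The spread between the 3 libraries was several times the counting error. Over the 9244 genes with a mean of at least 10 CPM, the median coefficient of variation was 16.9%, beside 3.38% from counting alone. The common biological coefficient of variation fitted with edgeR was 24.5% over 11965 genes. The highest library was more than 1.5-fold above the lowest for 3398 of the 9244 genes (36.8%), more than 2-fold for 863 (9.34%) and more than 4-fold for 39. No pair of libraries looked like a repeat deposit of 1 library. The squared differences between their counts were 38.5 to 106 times those from sampling noise alone (chi-square per degree of freedom).

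**Figure D4:**
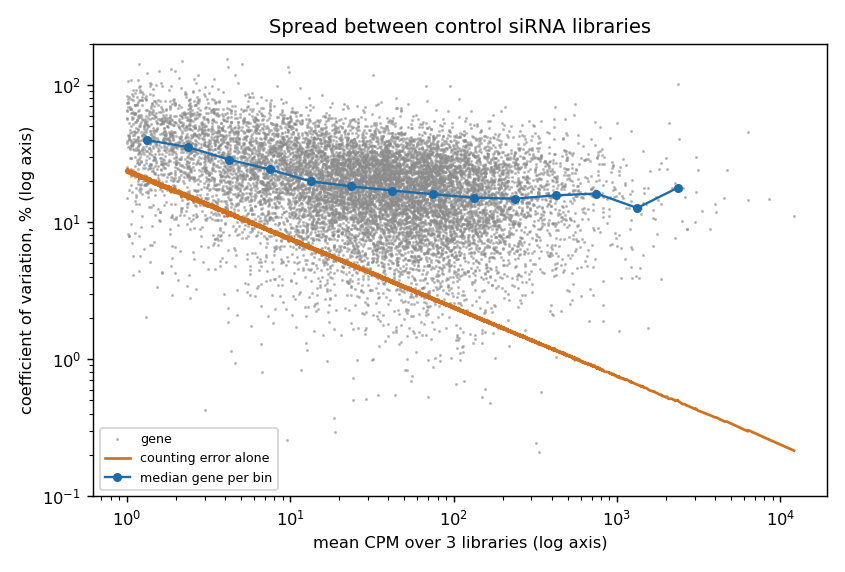
Coefficient of variation over the 3 control siRNA libraries (%, log axis) against mean CPM (log axis) for genes with a mean of at least 1 CPM, with 1 point per gene, the counting error alone (line falling to the right) and the median gene in bins of level (joined points). Counting error falls steadily with level, whereas the median gene levels off above about 10 CPM and stays near the 16.9% found over all genes past that level.

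The widest spreads had a shared pattern. Of the 20 genes with the largest ratio of highest to lowest CPM, 18 were lowest in replicate 2 and highest in replicate 3, and 17 of the 19 with a known length were longer than the median of 3488 bp. KIRREL had 116, 19.3 and 188 CPM and MAN2A1 60.6, 20.5 and 125. KIAA0754 and PRKAR2A had ratios of 10.6 and 6.54. HSPG2, which encodes the basement membrane protein perlecan, had 46.7, 35.8 and 202 CPM. The exceptions in direction were EGR1, an immediate early gene, which was highest in replicate 1 at 76.4, 14.5 and 5.96 CPM, and CRYAB, a small chaperone with a short transcript, which was highest in replicate 2 at 80.4, 129 and 25.4 CPM. Also in this set were ASXL2, FEM1B, SLFN5, FAM168A, PTPLB, ARHGAP42, ZNF496, POLR1A, MICAL2, FARP2 and ZKSCAN1, besides FN1. At the other end, LMNA (lamin A/C) had 333, 334 and 334 CPM, TARS 319.8, 321 and 320.1 and TRIM55 167, 166 and 167. DCTN2, SLC25A5, SNX5, KLHDC3, ATG9A, PFN2 and BZW2 were the other steadiest of the 2384 genes with at least 100 CPM.

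The order of the libraries went with gene length. Among 9165 genes, the tenth with the shortest transcripts (median 977 bp) had median log2 deviations from the 3-library mean of -0.04, 0.31 and -0.26 in replicates 1 to 3. The tenth with the longest (median 9661 bp) had 0.01, -0.30 and 0.31. Replicate 1 hardly moved with length. Spearman's correlation of the log ratio with length, across genes within the same libraries, was -0.54 for replicate 2 over replicate 1, 0.40 for replicate 3 over replicate 1 and 0.60 for replicate 3 over replicate 2. With the trend removed, the common biological coefficient of variation was 20.9%, beside 24.3% over the same 11681 genes. What made the libraries differ by length was not tested. The short genes NDUFA4L2 and COX4I1 were highest in replicate 2 and lowest in replicate 3, and the long genes FN1, FLNA and ITGB3 the reverse, as were the genes of their length. FN1 went well beyond that pattern, with a log2 deviation of 1.60 in replicate 3, and NDUFA4L2 with 0.86 in replicate 2.

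**Figure D5:**
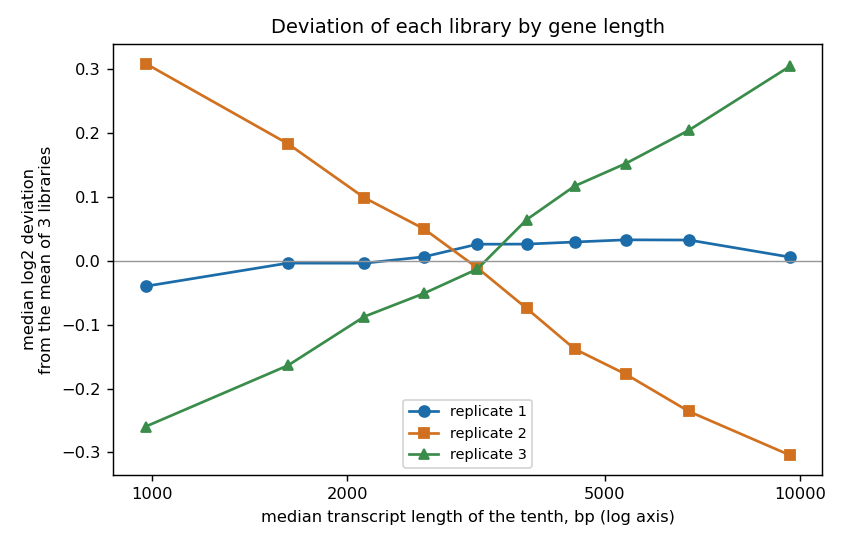
Median log2 deviation of each of the 3 control siRNA libraries from their mean, for 10 equal groups of genes by transcript length, placed at the median length of the group in bp (log axis). Replicate 2 falls from 0.31 to -0.30 and replicate 3 rises from -0.26 to 0.31 with length, while replicate 1 stays within 0.04 of 0.

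A few gene groups differed between libraries also after the length trend was removed. Of 13 immediate early genes, which answer serum and handling within minutes, 8 were detected (61.5%, near the 59.1% of protein-coding symbols), and their median log2 deviations in replicates 1 to 3 were 0.43, 0.07 and -0.56, or 0.43, -0.02 and -0.50 with the length trend removed. The medians here cover detected genes only. FOS, with 219, 38 and 0 counts, and FOSB, with 176, 20 and 14, missed the limit and were not in them. DUSP1 had 478, 323 and 203 CPM. Replicate 1 was highest for all of these and for EGR1. Interferon-stimulated genes, which answer viral and other foreign RNA, were detected in 15 of 16 cases. Their median deviations were 0.40, 0.24 and -0.48, or 0.39, 0.10 and -0.50 with the trend removed, so that replicate 3 was the low library. IFIT1 had 65.9, 58.3 and 24.9 CPM and IFI27 7.86, 9.16 and 1.90. ATF4 targets leaned the other way, with medians of -0.18, -0.08 and 0.31, or -0.17, -0.09 and 0.35 with the trend removed, and replicate 3 highest, as for the cystine transporter SLC7A11 at 24.1, 29.6 and 78.9 CPM and for ASNS at 52.7, 66.1 and 106. The sterol synthesis genes, all 13 of them detected, had medians of -0.02, -0.20 and 0.18. Kidney lineage factors were lowest in replicate 3, with medians of 0.12, 0.39 and -0.47. The medians of the S phase and mitosis genes lay closest to 0 among these lists, at 0.05, -0.06 and 0.05.

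Some zeros in the counts cannot be read as silence. Between GABBR1 and KIFC1 on chromosome 6, the stretch that holds the major histocompatibility complex, 23 of 128 genes were detected (18.0%), compared with 477 of 834 on the rest of the chromosome (57.2%). In this stretch 82 genes were below 0.1 CPM in each library (64.1%, compared with 28.9%). The class I genes HLA-B and HLA-C were exceptions, with 392, 364 and 251 CPM for HLA-B and 148, 189 and 120.0 for HLA-C, while HLA-E had 2, 1 and 1 counts. The same held for RPL21, a ribosomal protein gene that every cell needs, which had 0, 2 and 0 counts. The authors removed fragments that did not map to 1 place only, and whether that removal gave these values was not tested.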

How the data were processed

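The authors trimmed adaptors with Trim Galore (0.3.3), aligned the paired reads of poly(A)-selected libraries to hg19 with HISAT2 (2.05), removed fragments without a unique position with Picard (2.0.1), counted fragments per gene with HTSeq (0.5.4p3, intersection-strict) and deposited raw counts for 23106 symbols, without normalization. Whether strand was used in counting is not given in the sources used here, so overlapping genes and near-identical paralogs are uncertain.

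From the deposited counts of the 3 control siRNA libraries (16368493 to 20123214 each, so that counting error is small above 10 CPM), CPM was computed with TMM factors of 0.989 to 1.01 from edgeR (4.0.16, in R 4.3.3). Lengths were those of Ensembl canonical transcripts in GENCODE 44 (GRCh38), matched by current symbol for 20197 symbols and by older name for 1539. The other 1370 symbols held 0.456 to 0.556% of counts. The biological coefficient of variation was fitted with edgeR (intercept only, genes past its expression filter) after a check on simulated counts, and deviations used log2(CPM + 0.5). There is 1 group, so no test was made.

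Named genes were the 20 highest by CPM and by CPM per kb, the first 2 members of each family with all members of the HIF, hydroxylase, NDUFA4, COX4, glucose transporter, hexokinase and carbonic anhydrase families, marker list members, the 5 highest of each study list, the 20 widest genes with at least 10 CPM and the 10 steadiest with at least 100 CPM, some of which are not reported here. Members and lists were chosen with earlier results of these data known. CLDN1, CLDN12, ITGB5, PLOD1, VEGFC, the VEGF receptors, PLIN1, PLIN5, MTAP, DMRTA1, the chromosome 6 stretch and its genes, RPL21, the printed promoters, the length trend and the merged exon lengths were chosen after the values were seen. DESeq2 (1.42.0) served for alternatives only, as did other limits, lengths and subsets of libraries.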

Additional observations from a re-analysis of the deposited data

How the results depend on the processing

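The number of detected genes lay between 10949 (limit 2 CPM) and 12044 (limit 0.5 CPM) under every alternative other than leaving out a library. The share of counts in the first 20 genes was 8.90% without ribosomal protein genes and 6.52% when ranked per length. The common biological coefficient of variation was 17.8% from the median gene-wise DESeq2 dispersion, and 20.01 to 30.7% with 1 library left out (30.7% without replicate 1). Another member came first in 5 families without length, in 6 per coding length and in 10 with merged exons, the last chosen after seeing the data. The 75 families with 1 first member in all libraries became 70, 72 and 67 on these scales. Of 67 first-to-second log2 ratios, 37, 34 and 30 moved by more than the SD between libraries without a change of sign. Leaving out 1 of 3 libraries can never move a mean by more than that SD, so those settings could not check the ratios. Those that changed sign without length were -0.010 for the HIF β subunits, -1.54 for the PDK genes, -1.04 for CDK4 and CDK6 and -0.29 for ferritin. Per coding length the ratio was -0.15, -1.44, -0.94 and -0.23 for the same 4, -0.0096 for the E cyclins and -0.25 for the EGFR ligands. With merged exons the ratio was -0.26 for the hexokinases, -1.78 for the PDK genes, -0.93 for the VEGF ligands, -0.79 for the collagen prolyl hydroxylases, -0.036 for the lysyl hydroxylases, -0.17 and -0.11 for type I and II keratins, -0.056 for the ZEB factors and -0.44 for the perilipins. The lead passed to NFE2L2 without replicate 1 and to ERBB2 without replicate 3, and to no other gene with a library left out. No paired analysis was possible because only 1 group of samples was used and there was no second group to pair it with. Depth limits statements on genes below about 0.2 CPM.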
